A study of Mus musculus with 8 samples.

Results

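Potassium channels were followed as a gene family in mouse thalamic tissue. The genes were all those whose symbol starts with Kcn on an Affymetrix whole-transcript array, with Kcnj13 left out. The annotation named 95 Kcn probe sets with a single symbol, for 92 genes, Kcnj13 included. For each gene the probe set of highest mean was taken, and it was kept where that mean over the 8 arrays was at least 5.63 on the log2 scale. This left 78 genes, or 78 of the 15791 probe sets tested on the array. By symbol, 31 encode voltage-gated subunits, 11 inward rectifiers, 12 2-pore channels, 7 calcium- or sodium-activated channels and 14 accessory proteins, while 3 are transcripts from the opposite strand of a channel gene (Kcnd3os, Kcnmb4os1 and Kcnmb4os2). The faintest genes kept were Kcne4 at a mean of 5.71 and Kcnmb1 at 5.73, and the brightest left out were Kcna5 at 5.62 and Kcna10 at 5.55. Of the 13 genes under the limit, the faintest was Kcne3 at 4.10. A mean over all arrays can be carried by a single group, and 4 of the 78 genes had a group mean under 5.63.

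The tissue came from 8 male C57BL/6 mice, an inbred strain, which were 6 weeks old per the labels and formed 4 groups of 2. Control mice were given daily saline for 4 weeks. The other 3 groups, called injected below, were given MPTP at 20 mg/kg every 24 hr over the same 4 weeks. MPTP is a toxin that enters dopamine neurons and is used as a model of parkinsonism. The MPTP group had no needling. Acupoint mice were needled on both sides at GB34 on the leg (3 mm deep) and LR3 on the foot (1 mm deep), every 48 hr for 14 sessions. Non-acupoint mice were needled 3 mm deep at both hips on the same schedule. All needled mice had MPTP, so needling without MPTP was not measured. Each array held the thalamic tissue of 1 mouse, and mouse numbers in 1 group have no stated tie to those in another.

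Potassium channels let potassium leave a cell and so set its resting potential, shorten its spikes and space them in time. In thalamic relay neurons, leak channels of the 2-pore family set the resting potential on which the switch between tonic and burst firing depends. A-type channels of the Kv4 family, M-type channels of the Kv7 family and calcium-activated channels then shape how a burst or train runs. Kv3 channels open and close fast and are known for high firing rates, while inward rectifiers carry currents of G-protein receptors in neurons and potassium uptake in glia.

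The values are log2 levels, of which 1 unit is a 2-fold difference, and they hold the brightness of each probe set, so a level is compared between arrays and not between genes. Array medians lay between 6.18 and 6.29. The first mice of the MPTP and non-acupoint groups gave arrays unlike the other 6, here called the arrays that stood apart, with r = 0.982 between them and 0.905 to 0.936 against the others over 15791 probe sets. Over the 78 genes the same figures were 0.961 and 0.888 to 0.962, against 0.954 to 0.992 among the other 6 arrays. The difference between the mice of a group had a median over the 78 genes of 0.126 in controls, 0.405 in MPTP mice, 0.123 in acupoint mice and 0.289 in non-acupoint mice. Values are therefore also given for 6 arrays, without these 2, a step that leaves MPTP and non-acupoint with 1 mouse each, taken to vary like the other groups. All 10 matched markers of thalamic projection neurons were above the limit of 5.63. Their mean level per array was 9.10 and 9.19 in controls and between 9.62 and 10.01 in injected mice.

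With all 8 arrays, none of the 78 genes passed an adjusted p of 0.05 (limma, Benjamini-Hochberg over all 15791 probe sets) in the 4 comparisons or the F test. With MPTP against control 0 genes passed, as did 0% of all probe sets, and with acupoint against MPTP 0 genes and 0%. The share of all probe sets was 0.0443% for non-acupoint against MPTP, 0% for acupoint against non-acupoint and 0% for the F test over the 4 groups, each with 0 of the 78. The smallest adjusted p among the 78 genes was 0.530 for MPTP against control and 0.583 for the F test in limma. A change between groups of 2 had a median SE of 0.20 over the 78 genes, so these p-values do not show that levels were equal. The p-values measure the spread between mice of a group, pooled over the 4 groups, and an exact permutation test of 2 against 2 mice could not go below 0.333. What follows describes the levels, and sets the count of genes at an unadjusted p under 0.05, or with groups that did not overlap, beside the same share of all probe sets.

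**Figure D1:**
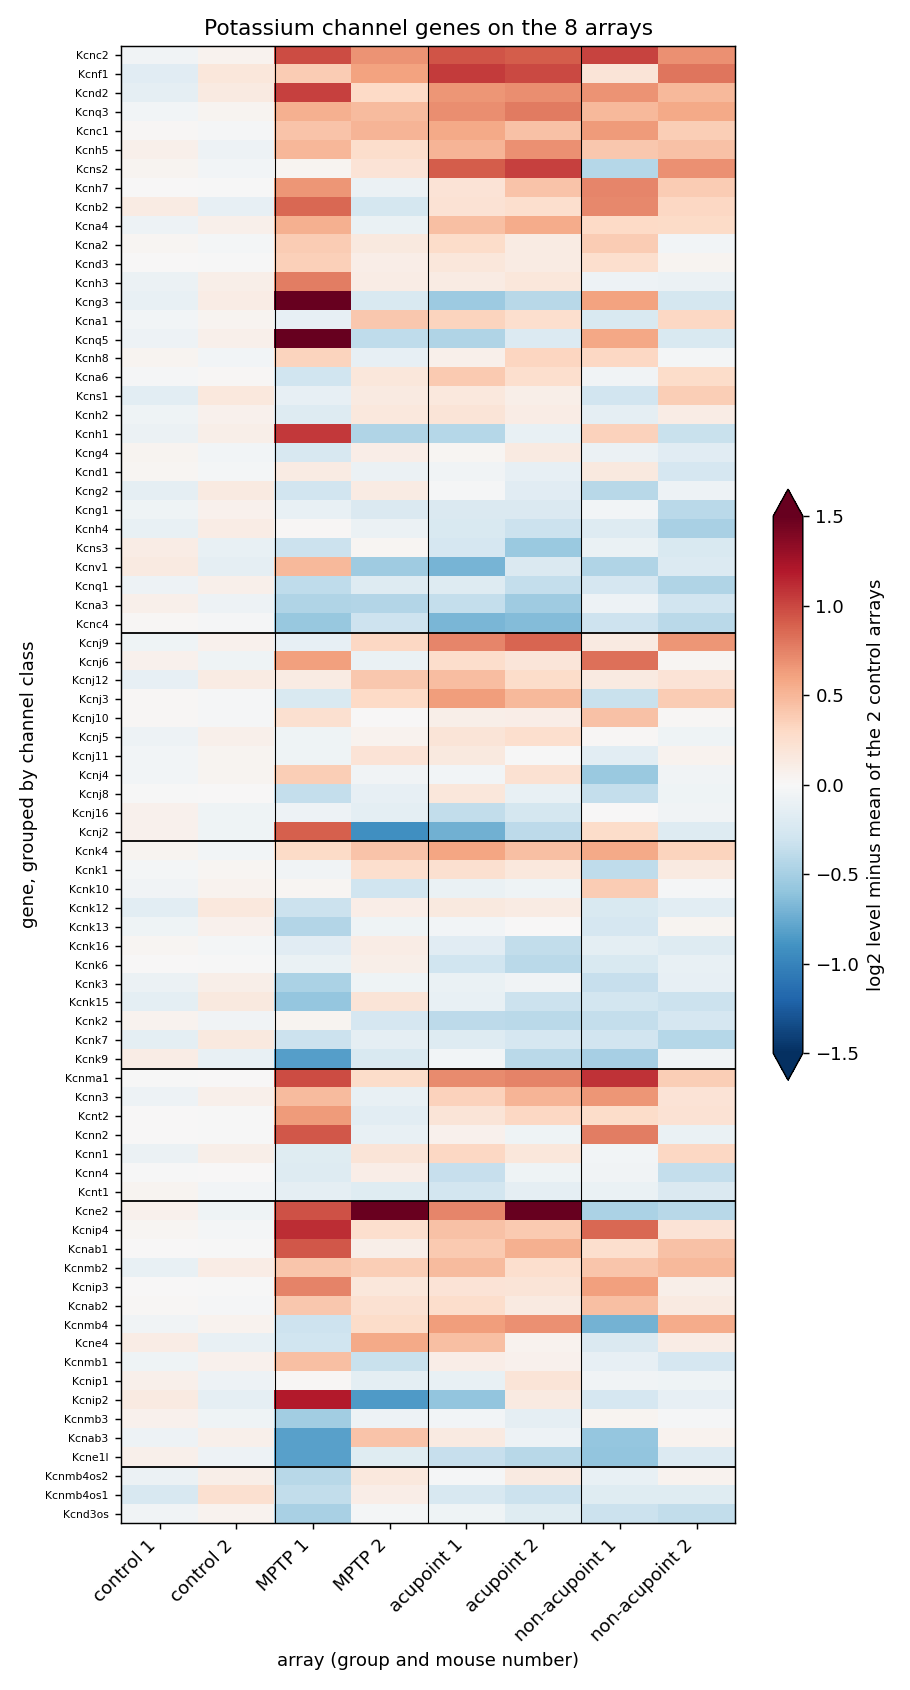
Colour plot of the 78 genes (rows, with lines between the classes) on the 8 arrays (columns, by group). Colour is the log2 level minus that gene's mean over the control arrays, red higher and blue lower, and is clipped at 1.5; Kcng3, Kcnq5 and Kcnip2 are deep red on MPTP mouse 1 alone, and Kcnc2 is red on every injected array.

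The first comparison asked how potassium channel genes stood in MPTP mice against saline controls. The gene of smallest p was Kcnc2, which encodes a Kv3 channel. Its relative Kcnc1 was also higher than control in all injected mice, and their relative Kcnc4 was lower. Kcnq3, Kcnd2, Kcnh5 and Kcnk4 were also higher, and Kcna3 was lower. At an unadjusted p under 0.05 were 10 of the 78 genes (12.8%, against 5.29% of all probe sets, limma). In 19 genes (24.4%, against 18.2%) both MPTP arrays lay above both controls, and in 11 (14.1%, against 20.4%) both lay below. The median change of the 78 genes was 0.05, with 43 higher and 35 lower, against -0.02 over all probe sets.

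Kcnc2 encodes Kv3.2, a channel that opens at high voltage and closes quickly. Its log2 level was 9.96 and 10.07 in controls, 11.00 and 10.68 in MPTP mice, 10.96 and 10.93 in acupoint mice and 11.03 and 10.70 in non-acupoint mice, mouse 1 first. Both controls lay below every injected mouse, and the 3 injected groups overlapped one another. The MPTP level exceeded the control level by 0.83 ± 0.17 (SE), or 1.77-fold, with an unadjusted p of 0.00251 and an adjusted p of 0.53 (limma). Over 6 arrays the difference was 0.67. Kcnc1, for the close relative Kv3.1, stood at 8.47 and 8.43 in controls, 8.88 and 8.97 in MPTP mice, 9.02 and 8.89 in acupoint mice and 9.09 and 8.82 in non-acupoint mice. The groups separated in the same way, controls below all the rest, and the difference was 0.47 ± 0.14 (SE), or 0.51 over 6 arrays. Kcnc4 encodes Kv3.4, a Kv3 subunit that inactivates fast, and it stood at 9.00 and 8.96 in controls, 8.41 and 8.66 in MPTP mice, 8.30 and 8.32 in acupoint mice and 8.67 and 8.57 in non-acupoint mice. Here both controls lay above every injected mouse, and MPTP differed from control by -0.44 ± 0.14 (SE), or -0.32 over 6 arrays. The adjusted p was 0.714 for both Kcnc1 and Kcnc4 in limma.

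The 250 bases before the RefSeq start site of these 3 Kv3 genes are shown because these related genes differed from control in opposite directions. Each is read 5′ to 3′ on the strand of its gene, in build GRCm38.p6, with capitals for any of 5 motifs searched on both strands. Kcnc1 lies at chr7:46396218-46396467 on the plus strand, Kcnc2 at chr10:112269767-112270016 on the plus strand (the first of 4 entries) and Kcnc4 at chr3:107458899-107459148 on the minus strand.
Kcnc1: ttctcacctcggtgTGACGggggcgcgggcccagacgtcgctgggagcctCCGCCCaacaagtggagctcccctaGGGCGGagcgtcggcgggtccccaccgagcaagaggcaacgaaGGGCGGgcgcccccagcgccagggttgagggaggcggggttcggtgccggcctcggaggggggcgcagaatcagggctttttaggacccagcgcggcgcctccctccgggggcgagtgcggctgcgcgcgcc
Kcnc2: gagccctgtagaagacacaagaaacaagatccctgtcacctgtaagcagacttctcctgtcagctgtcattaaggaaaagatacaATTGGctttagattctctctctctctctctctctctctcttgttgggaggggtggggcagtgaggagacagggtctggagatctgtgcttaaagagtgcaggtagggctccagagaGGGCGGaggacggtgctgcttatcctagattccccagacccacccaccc
Kcnc4: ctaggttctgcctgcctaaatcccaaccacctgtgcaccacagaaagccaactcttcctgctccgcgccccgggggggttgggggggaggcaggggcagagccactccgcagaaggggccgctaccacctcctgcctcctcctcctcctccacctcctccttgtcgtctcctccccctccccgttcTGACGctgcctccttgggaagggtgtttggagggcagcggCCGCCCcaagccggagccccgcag
The motifs were the GC box (GGGCGG), the TATA box (TATAAA), the core of the cAMP response element (TGACG), the E box (CACGTG) and the CCAAT box (CCAAT), none of which holds another. A GC box was present in all 3 windows, and TGACG in those of Kcnc1 and Kcnc4. No array value tests these windows, and a match is a description of the letters only.

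Kcnq3 encodes Kv7.3, which with other Kv7 subunits forms the M-type channel that dampens repeated firing. It stood at 9.22 and 9.30 in controls, 9.80 and 9.74 in MPTP mice, 9.96 and 10.04 in acupoint mice and 9.76 and 9.83 in non-acupoint mice. Every injected mouse lay above both controls, with the acupoint mice highest. MPTP exceeded control by 0.51 ± 0.12 (SE), or 1.42-fold, and by 0.48 over 6 arrays, with an adjusted p of 0.659 (limma, 8 arrays). Kcnd2 encodes Kv4.2, the A-type channel of dendrites, and stood at 9.43 and 9.70 in controls, 10.60 and 9.86 in MPTP mice, 10.23 and 10.27 in acupoint mice and 10.25 and 10.06 in non-acupoint mice. Controls were below all injected mice, but MPTP mouse 1 was the highest of all. Without it and non-acupoint mouse 1 the Kcnd2 difference was 0.29, against 0.66 ± 0.25 (SE) over 8 arrays.

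Kcnd3 and the Kv4 partner genes Kcnip4 and Kcnip3 also had both controls below all injected mice. Kcnd3, for Kv4.3, was 0.22 ± 0.15 (SE) above control. Kcnip4 and Kcnip3 encode calcium-binding proteins that attach to Kv4 channels. Kcnip4 stood at 9.82 and 9.76 in controls, 10.90 and 10.04 in MPTP mice, 10.23 and 10.18 in acupoint mice and 10.66 and 10.00 in non-acupoint mice, with controls lowest and both arrays that stood apart highest. Its difference was 0.68 ± 0.32 (SE) over 8 arrays and 0.25 over 6. For Kcnip3 the figures were 0.46 ± 0.25 (SE) and 0.18. The Kv4 gene Kcnd1 and the partner genes Kcnip1 and Kcnip2 did not separate in this way. Kcnip1 differed by -0.06 ± 0.16 (SE), or -0.15 over 6 arrays, and Kcnip2 by 0.16, or -0.85 over 6 arrays. The difference of Kcnd1 turned its sign over 6 arrays. The beta subunit genes Kcnab2 and Kcnab1, whose proteins attach to Kv1 channels, exceeded control by 0.32 ± 0.16 (SE) and 0.51 ± 0.27 (SE), and by 0.23 and 0.09 over 6 arrays. Kcnab2 had the brightest probe set of the accessory genes.

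Kcna3, for the delayed rectifier Kv1.3, stood at 8.30 and 8.16 in controls, 7.78 and 7.79 in MPTP mice, 7.88 and 7.70 in acupoint mice and 8.16 and 7.95 in non-acupoint mice. Both MPTP mice were lower than both controls, and non-acupoint mouse 1 came within rounding of the lower control. Its difference was -0.45 ± 0.14 (SE), and -0.44 over 6 arrays, with an adjusted p of 0.714 (limma, 8 arrays). Kcna1 and Kcna2, for the axonal channels Kv1.1 and Kv1.2, differed by 0.14 ± 0.24 (SE) and 0.27 ± 0.18 (SE). Kcna1 was lowest on the arrays that stood apart, and its difference over 6 arrays was 0.40. Kcna2 has 2 probe sets, which correlated at r = -0.396 over the arrays. The brighter, 10495193, was high on the arrays that stood apart and the dimmer, 10495197, low on them, so no direction is read for Kcna2 on these arrays.

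Kcnh5 encodes Eag2, a voltage-gated channel of the ether-a-go-go family. Its level was 8.13 and 7.98 in controls, 8.56 and 8.32 in MPTP mice, 8.57 and 8.75 in acupoint mice and 8.46 and 8.49 in non-acupoint mice. Controls lay below all injected mice, with acupoint mouse 2 highest, and the MPTP difference was 0.38 ± 0.15 (SE), or 0.27 over 6 arrays. Kcnk4 encodes TRAAK, a leak channel opened by membrane stretch. It stood at 7.64 and 7.55 in controls, 7.88 and 8.01 in MPTP mice, 8.19 and 8.04 in acupoint mice and 8.16 and 7.93 in non-acupoint mice, again with both controls lowest, and differed by 0.36 ± 0.15 (SE). Kcnmb2, a beta subunit that inactivates the BK channel, stood at 6.22 and 6.44 in controls, 6.74 and 6.70 in MPTP mice, 6.80 and 6.58 in acupoint mice and 6.74 and 6.82 in non-acupoint mice. Controls were lowest, the 3 injected groups overlapped, and the difference was 0.39 ± 0.15 (SE). None of these 3 passed, with an adjusted p of 0.714 for each in limma.

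Kcnma1 encodes the pore of the BK channel, which opens to voltage and calcium together. It stood at 9.21 and 9.23 in controls, 10.20 and 9.50 in MPTP mice, 9.93 and 9.97 in acupoint mice and 10.30 and 9.59 in non-acupoint mice. Both controls were lowest, and the arrays that stood apart were highest at 10.20 and 10.30. The difference was 0.63 ± 0.30 (SE) over 8 arrays and 0.28 over 6. The small-conductance calcium-activated genes did not share that order. Kcnn2 differed from control by 0.41 ± 0.40 (SE) and Kcnn3 by 0.18 ± 0.24 (SE), and over 6 arrays by -0.11 and -0.12, on the other side of 0. The sodium-activated channel gene Kcnt1 lay lower in all injected mice, by -0.16 ± 0.13 (SE) in the MPTP group.

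**Figure D2:**
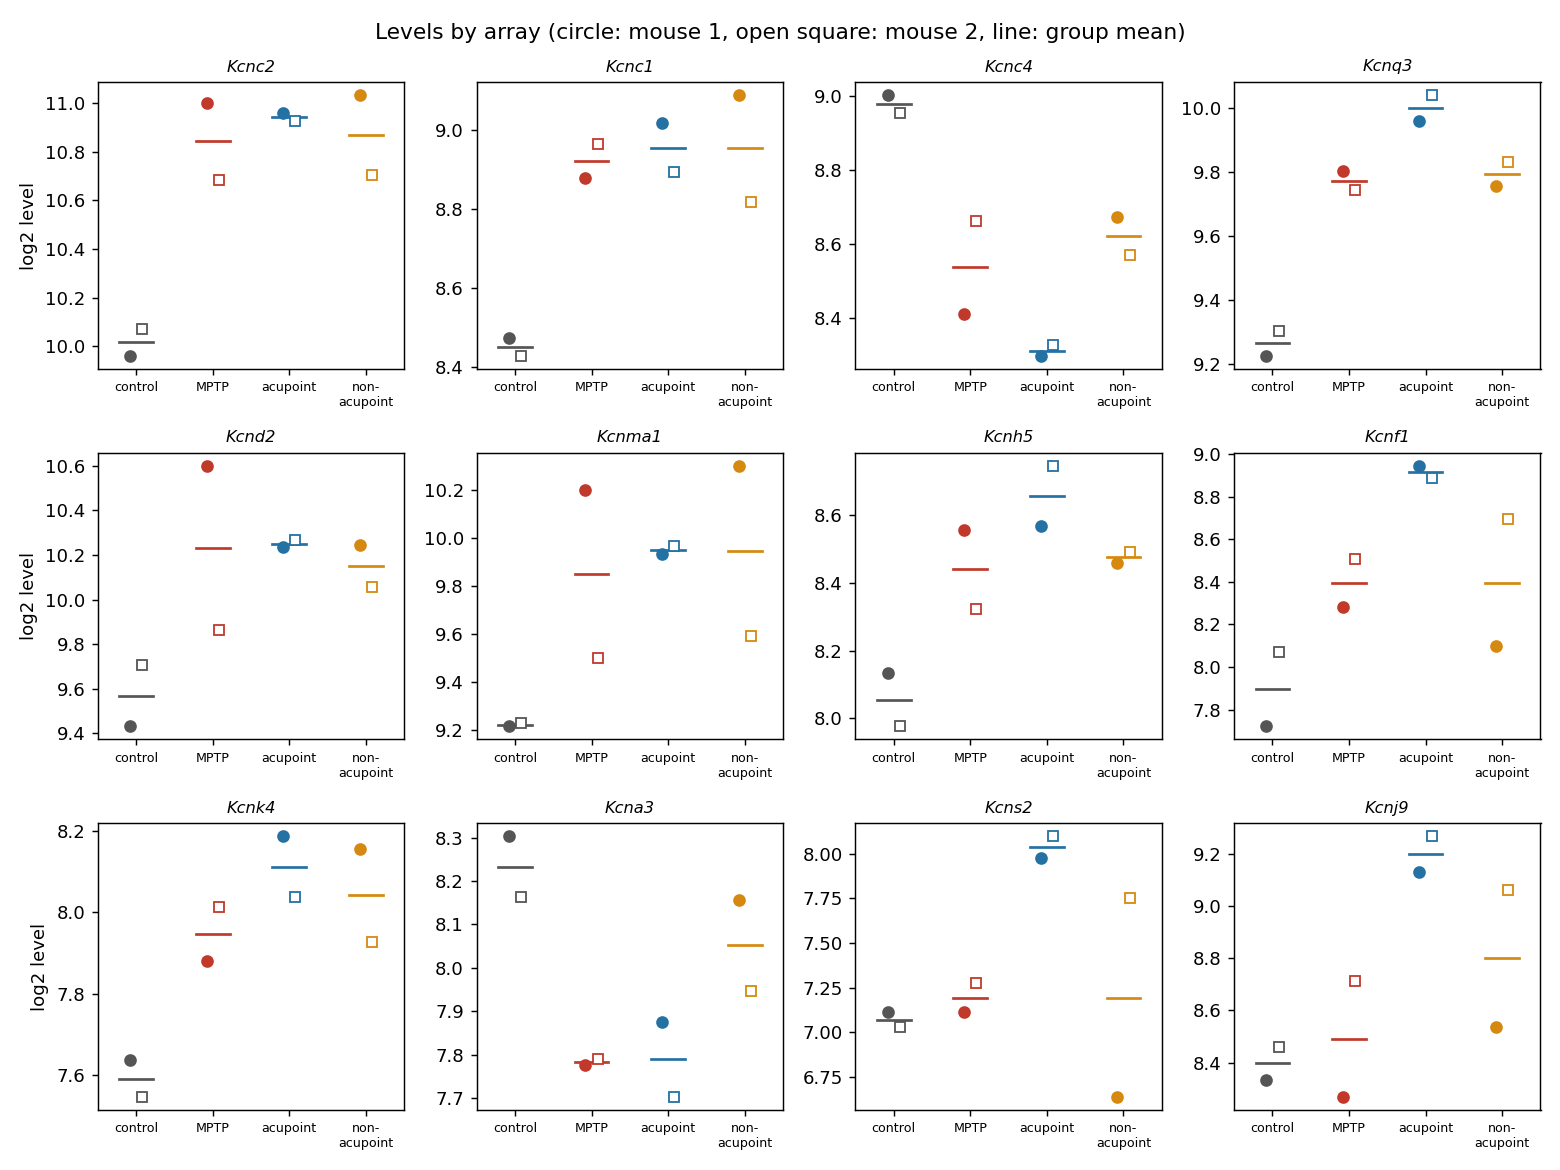
Log2 level (vertical axes, each with its own range) of 12 genes in each of the 8 mice, by group (horizontal axes). A circle is mouse 1, an open square mouse 2 and a line the group mean, and Kcnc2 lies at 9.96 and 10.07 in controls against 10.68 to 11.03 in injected mice.

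By class, the median change in MPTP mice was 0.14 for the 31 voltage-gated genes (20 higher), 0.07 for the 11 inward rectifiers (7 higher) and 0.15 for the 14 accessory genes (9 higher). Over 6 arrays these medians were 0.09 (17 higher), 0.000675 (6 higher) and 0.20 (9 higher). The 12 2-pore genes had a median of -0.12, with 10 lower, but 0.01 and 6 higher over 6 arrays. For the 7 calcium- or sodium-activated genes the medians were 0.18 over 8 arrays and -0.11 over 6. The 2-pore leak genes of relay neurons, Kcnk9 (TASK3) and Kcnk3 (TASK1), differed from control by -0.53 and -0.27. Kcnk9 stood at 8.75 and 8.52 in controls, 7.81 and 8.41 in MPTP mice, 8.60 and 8.23 in acupoint mice and 8.13 and 8.59 in non-acupoint mice. MPTP mouse 1 and non-acupoint mouse 1 were the lowest, and over 6 arrays its difference was -0.23 and that of Kcnk3 -0.06. Kcnk1, for TWIK1, had the brightest probe set of the 2-pore genes and differed by 0.10 ± 0.20 (SE).

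In MPTP against control, none of the 11 inward rectifiers had an unadjusted p under 0.05 in limma, against 5.29% of all probe sets. Kcnj10 encodes Kir4.1, through which astrocytes take up potassium, and it stood at 9.29 and 9.27 in controls, 9.51 and 9.28 in MPTP mice, 9.36 and 9.38 in acupoint mice and 9.72 and 9.29 in non-acupoint mice. The arrays that stood apart lay above the narrow band of the other 6, from 9.27 to 9.38. The MPTP difference was 0.12 ± 0.18 (SE) and 0.00 over 6 arrays. Its partner Kcnj16 (Kir5.1) differed by -0.11 ± 0.13 (SE), and Kcnj8 (Kir6.1), a channel of vessel-wall cells, by -0.24 ± 0.17 (SE). Kcnj6 (GIRK2), a channel of dopamine and other neurons, differed by 0.26 ± 0.32 (SE) over 8 arrays and by -0.10 over 6.

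**Figure D3:**
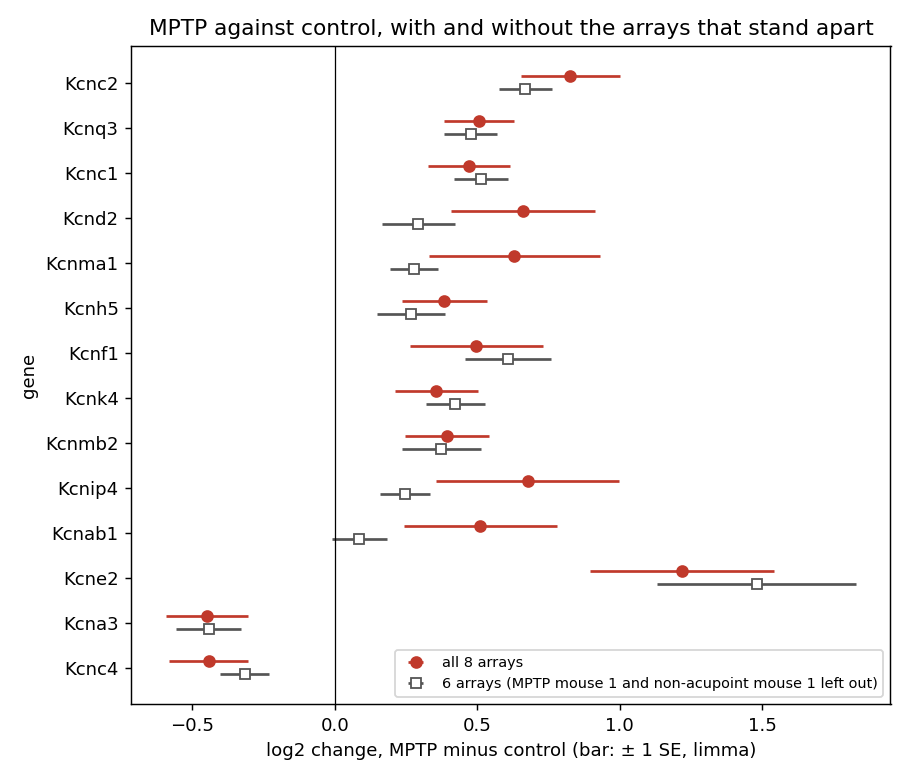
Log2 difference of MPTP minus control (horizontal axis) for 14 genes of the text (vertical axis), with bars of 1 SE from limma to each side. Filled circles are all 8 arrays and open squares 6 arrays, and the circle and square lie close for Kcnq3 and Kcnc1 but apart for Kcnd2, Kcnma1, Kcnip4 and Kcnab1.

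The same control mice served all injected groups, so a contrast of the 3 injected groups with control, added after the data were seen, shares its arrays with the one above. Both controls lay below all 6 injected mice in 15 genes (19.2%, against 10.3% of all probe sets) and above them in 5 (6.41%, against 9.66%). The 15 held 7 voltage-gated and 5 accessory genes, with Kcnma1, Kcnk4 and Kcnj12, an inward rectifier of the Kir2 family. The 5 were Kcnc4, Kcna3, Kcnt1, Kcne1l (also called Kcne5, an accessory subunit) and Kcnq1. With 8 arrays 0 genes passed and 0% of all probe sets, and 13 (16.7%, against 7.07%) had an unadjusted p under 0.05 in limma.

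With 6 arrays, 15 genes passed (19.2%, against 5.41% of all probe sets, limma with Benjamini-Hochberg adjustment). Over these arrays Kcnc2 was higher in injected mice by 0.76 with an adjusted p of 0.0075, Kcnq3 by 0.59, Kcnf1 by 0.81 and Kcnc1 by 0.46. Kcnf1 encodes Kv5.1, a silent subunit that forms channels only with Kv2. Also higher were Kcnd2, Kcnma1, Kcna1, Kcnh5, Kcnk4, Kcnj9, Kcnj3, Kcns2 and Kcnmb4. Over the same arrays Kcnc4 fell by 0.46 and Kcnj2, for the strong rectifier Kir2.1, fell by 0.56, while with 8 arrays the Kcnj2 difference was -0.18. The fit on 6 arrays had 2 residual degrees of freedom. The 2 arrays were left out after their values were seen, because they were unlike the other 6. The residual spread in this fit came from the control and acupoint mice alone. Their median differences between mice, 0.126 and 0.123, were below those of MPTP and non-acupoint mice, 0.405 and 0.289. The p-values over 6 arrays are therefore likely too small, and the counts that passed describe this fit only. For MPTP against control alone, with 1 MPTP mouse left, 0 of the 78 passed (0.361% of all probe sets did), and 27 (34.6%, against 15.8%) had an unadjusted p under 0.05. The F test over 6 arrays passed 8 genes (10.3%, against 2.67%), namely Kcnc2, Kcnq3, Kcnc4, Kcnf1, Kcnma1, Kcnj9, Kcns2 and Kcnmb4. The F test over 8 arrays had 10 of the 78 (12.8%, against 3.54%) at an unadjusted p under 0.05.

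Marker levels of the tissue are given beside these values. The thalamic projection list was higher in injected mice, in 9 of 10 genes, with a median change of 0.75. Hypothalamic markers were lower in 8 of 8 genes, with a mean level per array of 7.97 in both controls and 6.14 to 7.76 in injected mice. Dopamine neuron markers were lower in 8 of the 8 tested (En1 was under the limit). Their mean level was 8.75 to 8.93 in controls, 8.36 in MPTP mouse 2 and 6.87 to 7.57 in the other injected mice. MPTP mouse 2, the injected mouse nearest to controls for this list, is the MPTP mouse kept in the values over 6 arrays. The part of these levels in the differences of Kcnc2, Kcnc1, Kcnq3 and the other channel genes was not tested. In whole tissue, fewer cells of a type and less RNA per cell cannot be told apart.

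Kcne2 had the largest MPTP difference of the 78 genes. It encodes MiRP1, an accessory subunit found at the surface of choroid plexus epithelium, which secretes cerebrospinal fluid. Its 250 bases before the start site are shown for the widest swing between groups, at chr16:92292139-92292388 on the plus strand (the first of 2 entries), with the same capitals.
Kcne2: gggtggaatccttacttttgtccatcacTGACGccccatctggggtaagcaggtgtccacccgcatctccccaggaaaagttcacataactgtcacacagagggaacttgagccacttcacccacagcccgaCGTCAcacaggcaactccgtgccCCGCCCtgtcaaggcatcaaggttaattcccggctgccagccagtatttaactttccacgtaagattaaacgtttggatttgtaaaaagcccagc
The Kcne2 level was 5.80 and 5.67 in controls, 6.69 and 7.21 in MPTP mice, 6.46 and 7.41 in acupoint mice and 5.25 and 5.32 in non-acupoint mice. MPTP and acupoint mice lay above both controls, and non-acupoint mice below them and under the limit of 5.63. MPTP exceeded control by 1.22 ± 0.32 (SE), or 2.33-fold, with an unadjusted p of 0.00806 and an adjusted p of 0.707 (limma). Non-acupoint mice differed from MPTP mice by -1.67 ± 0.32 (SE) and acupoint from non-acupoint mice by 1.65 ± 0.32 (SE), with adjusted p-values of 0.673 and 0.893 in limma. Over 6 arrays these 3 differences were 1.48, -1.90 and 1.62.

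Choroid plexus markers had the same order. Of the 12 listed, 10 matched and all were above the limit of 5.63. Their mean level was 6.80 and 6.81 in controls, 8.43 and 8.56 in MPTP mice, 8.02 and 8.49 in acupoint mice and 5.73 and 5.80 in non-acupoint mice. In MPTP mice 10 of 10 were higher than control, with a median of 1.70, and in non-acupoint mice 10 of 10 were lower than in MPTP mice, with a median of -2.37. Kcnq1, the pore subunit that Kcne2 joins in epithelia, did not have this order and stood at 5.95 and 6.10 in controls, 5.64 and 5.83 in MPTP mice, 5.83 and 5.66 in acupoint mice and 5.77 and 5.57 in non-acupoint mice. The part of choroid plexus tissue in the Kcne2 level was not tested.

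**Figure D4:**
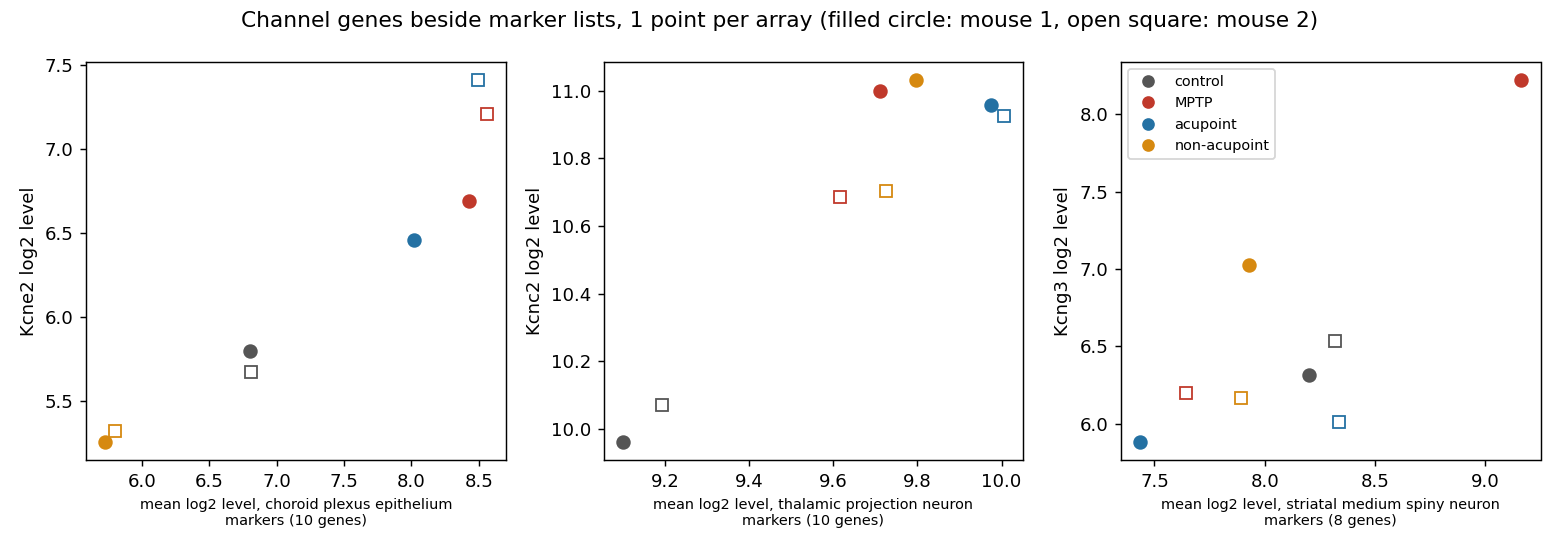
Log2 level of Kcne2, Kcnc2 and Kcng3 (vertical axes) against the mean log2 level of a marker list (horizontal axes), 1 point per mouse, coloured by group, with circles for mouse 1 and open squares for mouse 2. Kcne2 and the choroid plexus list are both lowest in non-acupoint mice, Kcnc2 and the thalamic list both lowest in controls, and Kcng3 and the striatal list both highest in MPTP mouse 1.

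The second comparison asked how acupoint needling after MPTP stood against MPTP alone. Higher in acupoint mice were the G-protein-gated inward rectifiers Kcnj9 and Kcnj3 and the silent subunits Kcns2 and Kcnf1, without any gene passing. The MPTP arrays are those of the first comparison and also serve the next one, so these comparisons are not independent. At an unadjusted p under 0.05 were 3 genes (3.85%, against 1.37% of all probe sets), namely Kcnj9, Kcns2 and Kcnk6. The groups did not overlap in 13 genes higher (16.7%, against 14.5%) and 8 lower (10.3%, against 12.5%). The 8 held the silent subunits Kcng1 and Kcng3 and the inward rectifier Kcnj16, so neither class moved as a whole. Of the 11 inward rectifiers 5 were higher and 6 lower, with a median of -0.0002 (0.15 over 6 arrays). The median was 0.02 over the 78 genes and 0.01 over all probe sets.

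Kcnj9 encodes GIRK3 and stood at 8.33 and 8.46 in controls, 8.27 and 8.71 in MPTP mice, 9.13 and 9.27 in acupoint mice and 8.54 and 9.06 in non-acupoint mice. Acupoint mice were highest, with non-acupoint mouse 2 close below at 9.06, and MPTP mouse 1 lowest. Acupoint exceeded MPTP by 0.71 ± 0.23 (SE), or 1.63-fold, and by 0.49 over 6 arrays. Kcnj3, for GIRK1, stood at 8.49 and 8.44 in controls, 8.23 and 8.76 in MPTP mice, 9.09 and 8.95 in acupoint mice and 8.12 and 8.85 in non-acupoint mice. It was lowest on both arrays that stood apart, and acupoint exceeded MPTP by 0.53 ± 0.28 (SE), or by 0.26 over 6 arrays. Kcns2 encodes Kv9.2, a silent subunit that modifies Kv2 channels, and stood at 7.11 and 7.03 in controls, 7.11 and 7.27 in MPTP mice, 7.98 and 8.10 in acupoint mice and 6.64 and 7.75 in non-acupoint mice. Acupoint mice were above all others, with non-acupoint mouse 2 at 7.75 next. The difference was 0.85 ± 0.34 (SE), or 1.8-fold, with 0.76 over 6 arrays. The adjusted p of each was 0.889 in limma.

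Kcnf1 stood at 7.72 and 8.07 in controls, 8.28 and 8.51 in MPTP mice, 8.94 and 8.89 in acupoint mice and 8.10 and 8.69 in non-acupoint mice. Controls were lowest and acupoint mice highest, and acupoint exceeded MPTP by 0.52 ± 0.23 (SE), or 0.41 over 6 arrays. Kcna6, for Kv1.6, exceeded MPTP by 0.39 ± 0.20 (SE), or 0.16 over 6 arrays. The 2-pore genes Kcnk6 (TWIK2) and Kcnk2 (TREK1) differed by -0.34 ± 0.13 (SE) and -0.29 ± 0.15 (SE), with both acupoint mice below both MPTP mice, and by -0.43 and -0.15 over 6 arrays. For Kcng3, a silent subunit (Kv6.3), the difference of -1.26 ± 0.62 (SE) rested on MPTP mouse 1, and was -0.25 over 6 arrays. Of the 6 habenular markers tested, 5 were higher in acupoint than in MPTP mice, with a median of 0.48 (1.33 over 6 arrays). Mean levels of this list overlapped between these groups only through MPTP mouse 1. Of 7 listed, 7 matched and Pou4f1 was under the limit, and their mean level was 7.07 and 7.66 in acupoint mice, 7.35 and 6.31 in MPTP mice, 6.48 and 6.50 in controls and 6.34 and 6.17 in non-acupoint mice. The thalamic projection list was also highest in acupoint mice, at 9.97 and 10.01. The part of either was not tested.

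The third comparison set hip needling after MPTP against MPTP alone. Few channel genes separated these groups, which hold both arrays that stood apart, and Kcne2 was the gene that differed most. At an unadjusted p under 0.05 was 1 gene, Kcne2 (1.28%, against 1.56% of all probe sets). The groups did not overlap in 3 genes higher (3.85%, against 5.67%) and 5 lower (6.41%, against 6.74%), shares near those of all probe sets. The 3 were Kcna3, Kcnj16 and the BK beta subunit gene Kcnmb3, by 0.27 ± 0.14 (SE), 0.09 ± 0.13 (SE) and 0.32 ± 0.17 (SE). Beside Kcne2 the 5 held Kcnk6, the ether-a-go-go-like channel genes Kcnh3 and Kcnh4, at -0.52 ± 0.22 (SE) and -0.30 ± 0.16 (SE), and Kcnj4, for Kir2.3, at -0.46 ± 0.23 (SE). Kcnh3 was set by MPTP mouse 1, at 7.37 against 6.51 to 6.77 elsewhere, and its difference over 6 arrays was -0.19. The median of the 78 genes was -0.02, against 0.01 over all probe sets.

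The last comparison asked whether the site of needling mattered, with acupoint against non-acupoint mice. In 20 genes (25.6%, against 13.8% of all probe sets) both acupoint mice lay above both non-acupoint mice, and in 12 (15.4%, against 18%) below. At an unadjusted p under 0.05 were 2, Kcne2 and Kcns2 (2.56%, against 1.89%). The median was 0.07, with 49 of 78 higher, against 0.01 over all probe sets. Kcnf1 and Kcnj3 were higher by 0.52 ± 0.23 (SE) and 0.54 ± 0.28 (SE), and over 6 arrays by 0.22 and 0.18. Kcns2 was higher by 0.85 ± 0.34 (SE), or 0.29 over 6 arrays, since non-acupoint mouse 1 was lowest of all at 6.64. Kcnj5, for GIRK4, was higher by 0.24 ± 0.13 (SE). The differences below 0 included Kcnc4 at -0.31, Kcna3 at -0.26 and Kcnj16 at -0.29. Marker lists differed between these groups too. Choroid plexus markers were higher in acupoint mice in 10 of 10 genes (median 2.18), and habenular markers in 6 of 6 tested (1.12). Markers of ependymal cilia were higher in 5 of 5 tested (0.67) and thalamic projection markers in 9 of 10 (0.32). Hypothalamic markers were lower in 8 of 8 (-0.84). The part of these tissues in the channel gene levels was not tested.

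Levels on the 2 arrays that stood apart were also compared with the other 6. In 17 genes (21.8%, against 28.3% of all probe sets) both lay above the other 6 arrays, and in 17 (21.8%, against 29.2%) below, so these shares were under those of all probe sets. Kcng3 was furthest above and stood at 6.31 and 6.53 in controls, 8.22 and 6.20 in MPTP mice, 5.88 and 6.01 in acupoint mice and 7.03 and 6.16 in non-acupoint mice. MPTP mouse 1 exceeded every other mouse by more than 1 log2 unit. Kcnq5, for the M-type channel Kv7.5, stood at 7.82 and 7.97 in controls, 9.50 and 7.51 in MPTP mice, 7.44 and 7.69 in acupoint mice and 8.48 and 7.67 in non-acupoint mice. MPTP mouse 1 was again highest and non-acupoint mouse 1 next. Kcnq5 differed between MPTP and control by 0.61 ± 0.61 (SE) over 8 arrays and by -0.38 over 6, with the sign turned. In MPTP against control the sign turned over 6 arrays in 30 of the 78 genes, none of which passed either way. Among them were Kcng3 (0.78 and -0.23 over 6), Kcnh1, the gene of Eag1 (0.31 and -0.45) and Kcnip2, a Kv4 partner (0.16 and -0.85). How many of all probe sets turned their sign was not counted, so the 30 is not read as a trait of channel genes.

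Kcnip2 had the widest gap within a group, at 8.71 and 6.68 in MPTP mice. Kcnj2 stood at 6.52 and 6.40 in controls, 7.36 and 5.54 in MPTP mice, 5.73 and 6.07 in acupoint mice and 6.74 and 6.27 in non-acupoint mice. It was highest in MPTP mouse 1 and lowest in MPTP mouse 2, so the group mean stands for neither mouse. Striatal markers other than Gpr6 and Syndig1l were also highest in MPTP mouse 1. Of 10 listed, 8 matched and all were above the limit, with a mean level of 9.16 in MPTP mouse 1 and 7.43 to 8.34 in the other mice. Non-acupoint mouse 1 was not high for this list, at 7.93, though Kcng3, Kcnq5, Kcnh1 and Kcnj2 were second highest there. Marker lists of cortical and hippocampal neurons (7.61 against 6.80 to 7.37) and of endothelial cells (7.96 against 7.53 to 7.85) were highest in MPTP mouse 1 too. The part of striatal or other tissue in the levels of these channel genes was not tested. Furthest below on the arrays that stood apart were Kcnmb4 and Kcnab3, accessory genes of the BK and Kv1 channels, at mean levels of 6.97 and 7.88 against 7.83 and 8.66 on the other 6.

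Kcnmb4, whose protein slows the BK channel of neurons and is one of the genes that passed in the injected contrast over 6 arrays, stood at 7.43 and 7.52 in controls, 7.17 and 7.75 in MPTP mice, 8.10 and 8.17 in acupoint mice and 6.77 and 8.03 in non-acupoint mice. Acupoint mice were highest and the arrays that stood apart lowest, and its difference between MPTP and control over 8 arrays was -0.02 ± 0.40 (SE). The BK partner Kcnmb1 differed by 0.06 ± 0.25 (SE). Kcnab3 stood at 8.50 and 8.65 in controls, 7.76 and 9.00 in MPTP mice, 8.71 and 8.49 in acupoint mice and 7.99 and 8.63 in non-acupoint mice. MPTP mouse 2 was highest and MPTP mouse 1 lowest, with a difference from control of -0.19 ± 0.41 (SE) over 8 arrays and 0.43 over 6. Kcne1l stood at 7.03 and 6.88 in controls, 6.15 and 6.78 in MPTP mice, 6.62 and 6.55 in acupoint mice and 6.36 and 6.76 in non-acupoint mice, so both arrays that stood apart were lowest and both controls highest.

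Further genes are given for MPTP against control. Among slow channels of the Erg type, Kcnh2 and Kcnh7 differed between MPTP and control by -0.01 ± 0.17 (SE) and 0.29 ± 0.26 (SE), and over 6 arrays by 0.16 and -0.08. Kcnb2, for the delayed rectifier Kv2.2, differed by 0.30 ± 0.36 (SE) over 8 arrays and -0.26 over 6, and Kcna4, for the A-type channel Kv1.4, by 0.22 ± 0.22 (SE) and -0.09. Of the silent subunits, Kcng1, Kcng2, Kcng4, Kcns1, Kcns3 and Kcnv1 lay between -0.16 (Kcng1) and 0.00 (Kcns1), and over 6 arrays between -0.54 and 0.13. Kcnj11 (Kir6.2), the pore of the channel closed by ATP, differed by 0.07 ± 0.16 (SE). Kcnk13 (THIK1), a channel of microglia, differed by -0.25 ± 0.18 (SE), and Kcnn1 and Kcnn4, both calcium-activated, by 0.01 ± 0.19 (SE) and -0.05 ± 0.18 (SE) (0.20 and 0.10 over 6 arrays). The opposite-strand transcripts Kcnd3os, Kcnmb4os1 and Kcnmb4os2 differed by -0.26 ± 0.18 (SE), -0.13 ± 0.22 (SE) and -0.13 ± 0.21 (SE). Over 6 arrays they stood at -0.02, 0.10 and 0.16. The channel gene Kcnd3 was at 0.22 and Kcnmb4 at -0.02, or 0.10 and 0.27 over 6 arrays.

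Patterns over the 8 arrays were compared within the family for the 6 genes of smallest F-test p. The measure was Pearson's r of the log2 levels, given as a description, since the points share groups and the 2 arrays that stood apart. Kcnc2 was most like Kcnc1 (r = 0.94), Kcnq3 (0.92) and Kcnma1 (0.92). Kcnq3 was most like Kcnh5 (0.94), and Kcnc1 most like Kcnk4 (0.97). Kcnc4 was most like Kcna3 (0.84), and Kcnf1 most like Kcnj9 (0.90). Kcne2 was least matched, with Kcnj4 nearest at 0.62. Over 6 arrays the r of Kcnc2 and Kcnq3 was 0.99.

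Channel genes that neighbour each other among protein-coding genes did not all share a pattern. Of 5 such pairs, Kcna1 and Kcna6 correlated at 0.844 and Kcnj16 and Kcnj2 at 0.598. Kcnip1 and Kcnmb1 stood at 0.359, Kcnj9 and Kcnj10 at -0.232 and Kcna3 and Kcna2 at -0.289, the last with the doubt about the Kcna2 probe sets.

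RefSeq promoters, here the 250 bases before a start site, were held for 60 of the 78 genes. A GC box was present in 55.0% of the 60, against 32.7% of 32851 promoters of all genes, and the median GC content was 60.8% against 52.4%. A TATA box was present in 1.67%, which was 1 gene, Kcnj9, against 12.4%. TGACG was present in 20.0% against 17.8%, the E box in 6.67% against 6.02% and the CCAAT box in 30.0% against 33.8%. The E box genes were Kcne4, Kcnn4, Kcnh4 and Kcnj2. The shares are not corrected for GC content or for genes with several entries.

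Genes outside the family that work with these channels were described by the same counts. Of 21 channel partners, such as scaffolds and Kv4 or Kv1 auxiliary proteins, 20 were tested and 0 passed in MPTP mice in either direction. Their median was 0.15, with 14 higher, against -0.02 over all probe sets. Over 6 arrays it was 0.07, against -0.01. Dpp10 and Dpp6, auxiliary proteins of Kv4 channels, were higher by 0.38 and 0.27. Dpp6 stood at 10.23 and 10.20 in controls and at 10.70 and 10.28 in MPTP mice, so its difference came mostly from MPTP mouse 1. Of 14 genes of pumps and potassium-chloride transporters, 10 were tested and 0 passed, with 6 higher and a median of 0.11 (0.07 over 6 arrays). Among these Fxyd6, a modulator of the sodium pump, stood at 9.91 and 9.86 in controls and 8.51 to 9.44 in injected mice.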

How the data were processed

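RNA from the thalamic tissue of 8 mice was hybridised to Affymetrix whole-transcript arrays, 300 ng per array, per the labels' protocols. The deposited table holds log2 values, which the authors made with Affymetrix Expression Console and RMA per the submitters' processing notes. Their versions are not given in these sources. RMA gives the arrays a shared distribution, which hides any shift in RNA content common to all genes. Probe sets were named through the platform annotation. The 40% of lowest mean and unnamed probe sets were left out, which left 15791.

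In R 4.3.3 with limma 3.58.1, the 4 group means were fitted over the 8 arrays together (lmFit, eBayes; 4 residual and 2.53 prior degrees of freedom). Benjamini-Hochberg adjustment of the two-sided p-values ran over 15791 probe sets, and an adjusted p under 0.05 passed. The number of arrays limits the precision, and no detection calls were used.

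Genes named with values were the 8 of smallest p among those whose groups did not overlap in each comparison, the 6 of smallest F-test p, the brightest of each class, and a list of thalamic channel genes. Others, among them Kcnip3, Kcnab1, Kcnt1, Kcnh1, Kcnip2, Kcnj2, Kcnab3 and Kcnmb4, were chosen after their values were seen. The members and gene lists were chosen with earlier results of these data known. Promoter sequences came from RefSeq (GRCm38.p6), which held 60 of the 78 genes. Alternatives were other normalizations, filters and eBayes settings, fits limited to the compared groups, a block for mouse number, and leaving out each mouse or both arrays that stood apart.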

Additional observations from a re-analysis of the deposited data

How the results depend on the processing

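The single-gene check covered 52 changes of 34 named genes, taken because their groups did not overlap. Leaving out mice could therefore not turn a sign. Filters, eBayes settings, the block and fits limited to the compared groups do not alter a change, so the check had little room to show a turned sign. Of its 901 values over 18 settings, 892 kept direction and side of the threshold and 0 turned their sign. Over all 78 genes, the sign turned with 6 arrays in 30 for MPTP against control, 33 for acupoint against MPTP, 19 in each of the other 2 comparisons and 8 for injected against control, none past the threshold in either fit. The other 9 passed in the injected contrast with 6 arrays (Kcnc1, Kcnc2, Kcnc4, Kcnd2, Kcnf1, Kcnh5, Kcnk4, Kcnma1 and Kcnq3). With 6 arrays, 15 genes passed in that contrast and 8 in the F test, in place of 0. Controls then lay above all injected arrays in 13 genes, in place of 5, and below them in 24, in place of 15, since fewer arrays must separate. Of all probe sets, 9.66% and 10.3% separated in these ways with 8 arrays. With 6 arrays these shares, and that of turned signs, were not counted. The counts of separated genes and of turned signs are therefore not read as a result about channel genes. Nor are the counts that passed with 6 arrays, since the 2 arrays were left out after their values were seen. Medians of the 78 genes with 6 arrays were 0.0923 for acupoint against non-acupoint and -0.00113 for non-acupoint against MPTP. With the dimmest 60% left out they were 0.12 for MPTP against control, 0.0574 for acupoint against MPTP, 2.5e-05 for non-acupoint against MPTP and 0.16 for injected against control.

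Leaving out 1 mouse at a time gave medians of 0.0257 (without MPTP mouse 2) to 0.0858 (without MPTP mouse 1, and with 6 arrays) for MPTP against control, -0.0224 to 0.0560 for acupoint against MPTP, -0.000927 to 0.0923 for acupoint against non-acupoint, -0.0555 to 0.00968 for non-acupoint against MPTP and 0.0340 to 0.102 for injected against control. Genes at an unadjusted p under 0.05 then numbered 3 to 33 for MPTP against control, the highest without MPTP mouse 2, 0 to 22 for acupoint against MPTP, 1 to 14 for non-acupoint against MPTP, 1 to 8 for acupoint against non-acupoint, 6 to 24 for injected against control and 1 to 29 for the F test. With 6 arrays they numbered 25, 17, 10, 39 and 38 in the last 5 of these. The lowest count for MPTP against control, 3, came without control mouse 1. With 1 mouse left in a group, that mouse was taken to vary like the other groups. The fit on the 2 groups alone gave 5 for MPTP against control. For the counts so far in this paragraph no share of all probe sets was taken, so they describe the fits and are not read as a result about channel genes. The replicate block gave 0 genes past the threshold in every comparison and a median of 0.05 for MPTP against control. The labels do not pair the mice, and deviations of mouse 1 correlated at -0.282 to 0.822 between groups, the highest between MPTP and non-acupoint. Normalizing again left the median of all probe sets between -0.033 and 0.021 over the comparisons, against -0.016 to 0.013 with the deposited values. Dim probe sets are compressed, and groups of 2 could not be screened for outliers.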
